A study of Mus musculus with 3 samples.

Results

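The Nhej1 viewpoint is the DpnII fragment that holds the promoter of Nhej1 on mouse chromosome 1. It was followed here through every contact listed under its name, and 6950 of the 47812899 listed contacts of 7184 viewpoint names belonged to it. It was chosen because 3 DpnII fragments inside the gene Ptprn stood above the level that distance alone gives. Their centres lie 125.8 to 128.5 kb away, with other fragments between them. The values of these 3 therefore picked the viewpoint, and they are given below as a description with no test.

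Contacts were measured with NuTi Capture-C, in which cross-linked chromatin is cut with DpnII at GATC, ligated, and enriched with biotinylated oligonucleotides for the fragments of interest, so that each unique ligation event (a reporter) joins a captured promoter to the fragment it touched. The study made 3 libraries from erythroid cells of the spleen, and they form 1 group with no untreated or mutant control. The mice were F1 hybrids of C57BL/6 and CBA/J, made anaemic with phenylhydrazine in 3 doses spaced 12 h apart, and the spleens were taken on day 5, when erythroid precursors expressing CD71 and ter119 fill the organ. Cells were selected on ter119, and the contact values hold no expression levels against which to check the cell type.

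Nhej1 encodes XLF, also called Cernunnos, a factor of non-homologous end joining, the pathway that rejoins broken DNA ends and completes V(D)J recombination in lymphocytes. XLF binds Xrcc4 and stimulates the ligase Lig4 at ends held by the Ku proteins Xrcc5 and Xrcc6. Ptprn encodes IA-2, a phosphatase-like protein of dense-core secretory vesicles in neurons and endocrine cells. Promoters are brought near distant DNA by chromatin folding, and contact frequency between fragments falls steeply with the distance between them, so each contact is best read against other promoters at the same distance.

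The viewpoint covers chr1:75121675-75122394 of the mm9 build, 720 bp. In the GENCODE vM1 annotation of that build it overlaps the coding exon and 3' UTR at the end of Slc23a3, a gene on the minus strand, and the annotated Nhej1 gene (chr1:75013713-75093213, minus strand) ends 28.5 kb away, with a transcript whose 5' end is marked as incomplete. The RefSeq promoter of Nhej1, from a GRCm38.p6 table, matched mm9 exactly once, inside the viewpoint on the minus strand, and placed the start site at chr1:75121800. The label therefore held for the RefSeq start and not for the GENCODE gene model. The 250 bases before that start are shown because they are the promoter whose contacts were counted, with letters of the GATA and KLF motifs, bound by erythroid transcription factors, in capitals (GATA searched as AGATAA and TGATAA, KLF as CCNCNCCC, on both strands).
Nhej1 promoter, chr1:75121801-75122050, minus strand: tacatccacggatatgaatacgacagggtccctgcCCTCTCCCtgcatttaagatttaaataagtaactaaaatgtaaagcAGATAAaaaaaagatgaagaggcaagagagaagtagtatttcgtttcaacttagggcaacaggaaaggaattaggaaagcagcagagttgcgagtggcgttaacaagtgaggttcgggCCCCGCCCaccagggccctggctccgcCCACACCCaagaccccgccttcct

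This promoter held 3 KLF matches and 1 GATA match. Of 32851 RefSeq promoters cut to the same 250 bases, 45.9% held a KLF match and 16.6% a GATA match. A match of letters is a description and not evidence of a bound site.

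The contact lies in the body of Ptprn (chr1:75243616-75260783, minus strand), 121 kb from the viewpoint at its near end, and not at either RefSeq start of Ptprn, which mapped to chr1:75260783 and chr1:75260346. No captured viewpoint name holds Ptprn. The first fragment, chr1:75247510-75248252, is intronic and 743 bp long. The second, chr1:75249120-75249720 (601 bp), and the third, chr1:75250219-75250898 (680 bp), each hold coding exon and intron. A stretch of 200 bases with the most motif matches is shown for each, plus strand, to let the contacted DNA be read beside the promoter; capitals mark KLF matches in the first and second and the CTCF core in the third.
Fragment 1, chr1:75247532-75247731: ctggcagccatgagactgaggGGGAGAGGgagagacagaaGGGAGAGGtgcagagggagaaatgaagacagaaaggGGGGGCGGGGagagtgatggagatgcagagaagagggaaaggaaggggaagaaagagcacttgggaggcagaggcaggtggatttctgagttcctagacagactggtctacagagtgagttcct
Fragment 2, chr1:75249380-75249579: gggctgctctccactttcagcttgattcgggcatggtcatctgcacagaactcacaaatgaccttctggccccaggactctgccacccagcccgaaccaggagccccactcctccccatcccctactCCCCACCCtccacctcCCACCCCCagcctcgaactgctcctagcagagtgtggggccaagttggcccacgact
Fragment 3, chr1:75250647-75250846: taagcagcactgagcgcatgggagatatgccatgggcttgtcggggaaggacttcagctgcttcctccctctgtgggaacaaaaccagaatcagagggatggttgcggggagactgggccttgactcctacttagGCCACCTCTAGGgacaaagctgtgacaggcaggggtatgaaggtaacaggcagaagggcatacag

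CTCF is the zinc finger protein that anchors many chromatin loops. Its core motif, searched on both strands as CC, 3 bases of any kind, AG, 2 bases of any kind and GGC, matched 3 times in the 3389 bp from the start of the first fragment to the end of the third. On chromosome 1, 26.3% of 56468 tiles of that length held a match and 0.944% held 3 or more. These tiles, and the like fragments below, were matched on length and not on base composition. The 3 matches, and 2 more just beyond the third fragment, are shown with the core in capitals and each read on the strand of its match. Matches 1, 3 and 4 lie on the minus strand and matches 2 and 5 on the plus strand. Only match 3 falls in a chosen fragment, and 6.31% of the 29754 chromosome 1 fragments of 601 to 743 bp held one. The Nhej1 viewpoint held none. A KLF match lay in the first and second fragments (34.1% of like fragments held one), and none of the 3 held a GATA match (60.9% of like fragments did).
Match 1, chr1:75248350-75248389, minus strand: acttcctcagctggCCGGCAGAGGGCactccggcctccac
Match 2, chr1:75249720-75249759, plus strand: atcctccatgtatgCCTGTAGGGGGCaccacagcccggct
Match 3, chr1:75250768-75250807, minus strand: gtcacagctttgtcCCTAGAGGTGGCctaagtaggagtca
Match 4, chr1:75250979-75251018, minus strand: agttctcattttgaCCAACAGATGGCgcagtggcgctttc
Match 5, chr1:75251941-75251980, plus strand: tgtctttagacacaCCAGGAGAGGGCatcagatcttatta

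Sequence shared with the viewpoint was also searched for. None of the 28 fragments between 118 and 136 kb from Nhej1 shared a word of 30 bases with the viewpoint on either strand, and none of its 10 highest fragments did. Sequence shared with other places was not searched, and whether reads were placed on the wrong fragment was not tested.

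Library names are not given for the 3 value columns, so the first column is called library a, the next b and the last c. They held 3298, 5131 and 4934 same-chromosome events for Nhej1. Their sum of 13363 exceeded the total of 77.9% of the viewpoints with at least 1000 events, whose median was 7022.5. A single event was worth 30.3, 19.5 and 20.3 per 100000 in libraries a, b and c. Over 5 kb windows within 1 Mb of all viewpoints, libraries b and c differed by no more than sampling noise (chi-square per degree of freedom 0.981), whereas a differed from b (1.19) and from c (1.18). Libraries b and c were therefore averaged and counted as 1 sample, so that every mean ± SD below has n = 2 and leaves out the spread between b and c. At Nhej1 alone the same measure was 1.05 between a and b, 1.11 between a and c and 1.14 between b and c.

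At the first contact fragment Nhej1 had 334, 292 and 203 events per 100000 in libraries a, b and c, from 11, 15 and 10 events. At the second it had 243, 234 and 263, from 8, 12 and 13 events. At the third it had 364, 234 and 182, from 12, 12 and 9 events. Library a was highest at the first and the third fragments and c at the second, and no library was without events at any of them. Together the fragments took 31, 39 and 32 events, 822 ± 167 per 100000 (SD, n = 2).

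The expectation was the mean count of all viewpoints in the same distance bin, scaled to the total of the viewpoint. It gave 8.03 events in all for the 3 fragments, against 102 observed, a ratio of 12.7. The ratio was 14.5, 13.1 and 11.0 in libraries a, b and c (13.3 ± 1.72, SD, n = 2). By fragment it was 13.5, 12.3 and 12.3. The fragment just outside the choice, chr1:75248253-75248854 between the first and second, had 9, 11 and 10 events and a ratio of 11.2. The chosen fragments are longer than the median of 272 bp within 1 Mb, and with the expectation also scaled by length class the ratio for the 3 together was 8.79. Set beside the threshold used for all viewpoints below, again as a description since the choice fixed it, 5 Nhej1 fragments passed, which were the chosen 3, the one just outside and chr1:75253053-75254201 (9, 9 and 8 events, ratio 10.8), all in Ptprn. Over all viewpoints 0.00413% of 28839844 pairs passed. The Nhej1 count was 2, 3 and 2 without library a, b and c. It was 8 with length scaling and 13 when the top 1% of counts was left out of the dispersion. With the dispersion taken over all pairs it was 3, and that setting had marked out the 3 chosen fragments. Because Nhej1 was chosen on these values, nothing is read from its count against the background.

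**Figure D1:**
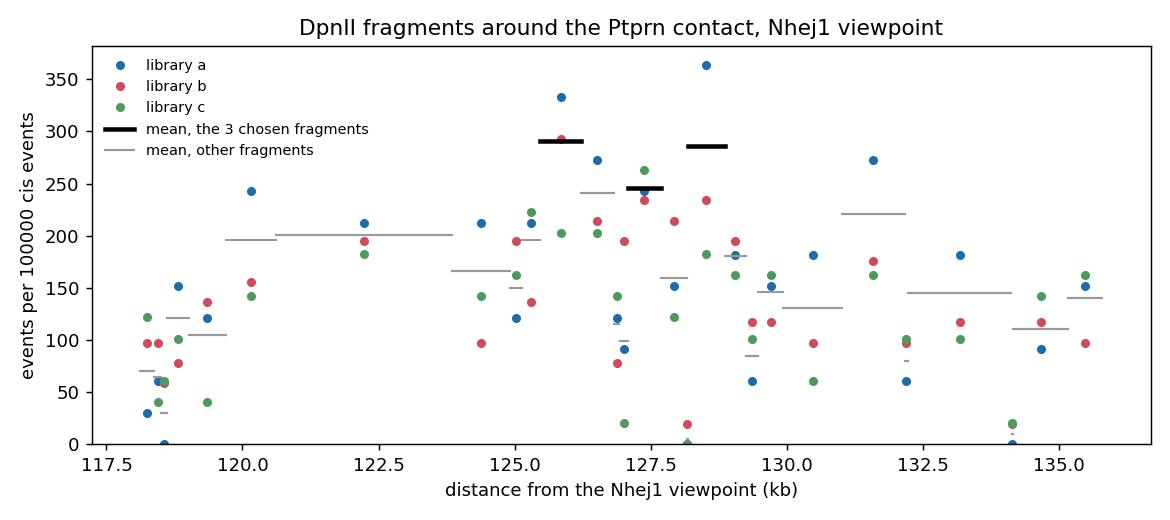
Events per 100000 cis events of the Nhej1 viewpoint (vertical axis) at each DpnII fragment by the distance of its midpoint (horizontal axis, kb); points are libraries, and bars span the fragment length at the mean of library a and the average of b and c, black for the 3 chosen fragments. Neighbouring fragments are raised too, and the short ones of 18 and 31 bp hold 1 and 2 events.

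Neighbouring fragments were raised too. Of the 28 fragments between 118 and 136 kb, the chosen 3 included, all but 2 had a ratio above 2. The 2 exceptions were the shortest, of 18 bp (ratio 0.374) and 31 bp (0.830). In windows of 10 kb the ratio was 8.58, 8.68 and 7.68 in libraries a, b and c at 120 to 130 kb, 4.29, 4.22 and 4.36 just before it, and 5.31, 4.67 and 4.92 just after it. It then fell to 1.91, 1.83 and 1.87 at 140 to 150 kb. Each library kept this order of steps. The expectation counts fragments and not bases, and it was not scaled by length here. The 120 to 130 kb window held 355 events on 16 fragments, against 304 on 25 fragments just before it. Without the 3 chosen fragments, which fall in the 120 to 130 kb window, its ratio was 7.22, 7.66 and 6.91. Summed over the genes, Ptprn had the highest ratio of the 38 protein-coding genes within 500 kb, 6.88 ± 0.296 over its 29 fragments (SD, n = 2), and 6.10 ± 0.118 over the 26 left without the chosen ones. Dnajb2, a co-chaperone gene next to Ptprn, followed with 4.41 ± 0.150, and Stk16, a kinase gene, with 3.57 ± 0.359. Tuba4a, an alpha-tubulin gene, had 2.82 ± 0.0119 and Abcb6, a porphyrin transporter gene of red cell precursors, 2.44 ± 0.316. On the far side of Ptprn, Resp18, which encodes an endocrine secretory protein related in sequence to IA-2, had 1.75 ± 0.0725. Ptprn had 501 events on 29 fragments, and Dnajb2 had 276 on 22 in a shorter gene. Per base of gene, with no allowance for distance, the nearer Dnajb2 and Tuba4a had more events than Ptprn and Stk16 had fewer. The highest ratio of Ptprn therefore holds by fragment, and no ratio by base was computed.

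**Figure D2:**
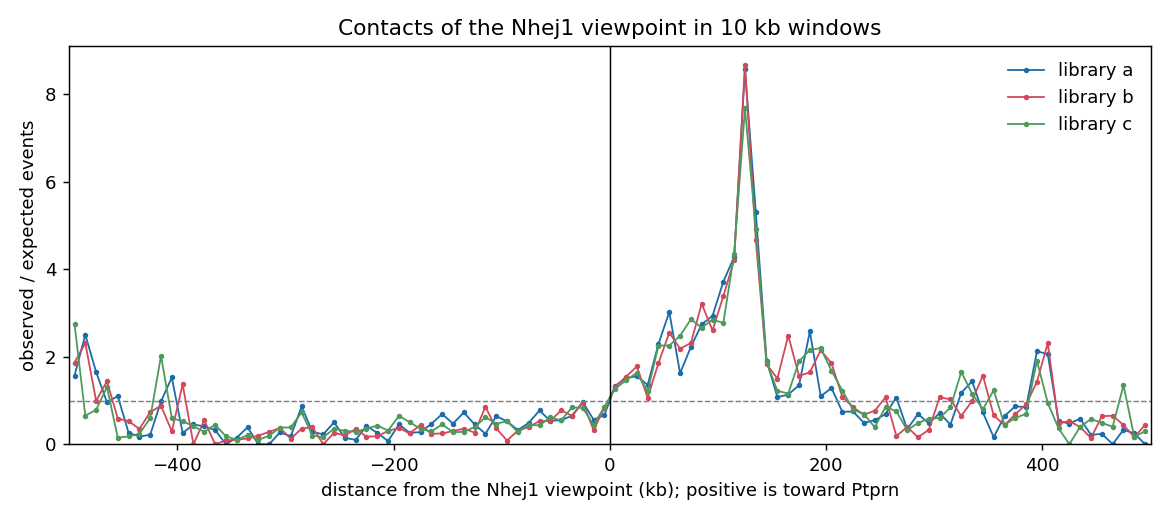
Observed over expected events of the Nhej1 viewpoint in 10 kb windows (vertical axis) by distance (horizontal axis, kb, positive toward Ptprn), with a line for each library and a dashed line at 1. The 3 libraries peak together at 120 to 130 kb, between 7.68 and 8.68, and stay mostly under 1 on the other side.

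The profile was strongly lopsided. Between 10 and 200 kb, 82.5% of 4975 events lay on the side of Ptprn (95% exact binomial interval 81.4 to 83.5%, counting error only), and 81.4%, 83.2% and 82.5% in libraries a, b and c. Only 55 of 6718 viewpoints had more of their events in that range on 1 side. Toward Ptprn the ratio was 1.47 ± 0.0137 at 10 to 40 kb, 2.54 ± 0.0260 at 40 to 110 kb, 4.29 at 110 to 120 kb, as given by library above, and 6.81 ± 0.328 at 120 to 140 kb. These ratios too count fragments and not bases. The window at 110 to 120 kb held 304 events on 25 fragments. Those at 120 to 130 and 130 to 140 kb held 355 and 190 events on 16 each, so the last step up is not one of events per window. Single windows did not climb at every step, with 1.63 ± 0.107 at 20 to 30 kb and 1.25 ± 0.155 at 30 to 40 kb. Past the contact the ratio was 1.64 ± 0.179 at 140 to 210 kb, 0.949 ± 0.294 at 210 to 220 kb and 0.685 ± 0.0179 at 220 to 500 kb. On the other side, toward Ihh, which encodes a hedgehog signalling ligand, the ratio was 0.526 ± 0.0363 from 10 to 500 kb, and 5 of 49 windows exceeded 1. The annotated Nhej1 gene body itself lies on that side. Its 150 fragments had a ratio of 0.575, 0.533 and 0.583 in libraries a, b and c, below expectation in each, and those of Ihh had 0.278 ± 0.0488.

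By distance range, 4.55% of the Nhej1 events lay under 10 kb (95% exact binomial interval 4.20 to 4.92%), 23.2% at 10 to 100 kb (22.5 to 23.9%) and 25.6% at 100 kb to 1 Mb (24.8 to 26.3%). The share at 1 to 10 Mb was 10.4% (9.90 to 10.9%), with 9.13%, 11.3% and 10.4% in libraries a, b and c. Only 2.52% of viewpoints had a lower share in that range, and the median viewpoint had 21.4%. Beyond 10 Mb lay 36.3% (35.5 to 37.1%), close to the median of 34.1%. The median viewpoint had 7.35% under 10 kb, 15.9% at 10 to 100 kb and 19.6% at 100 kb to 1 Mb. Against the medians Nhej1 had larger shares from 10 kb to 1 Mb, and smaller ones under 10 kb and at 1 to 10 Mb. Its largest single share lay beyond 10 Mb. The order of the Nhej1 shares was the same in each library.

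The contacts of the other captured promoters at the same 3 fragments did not enter the choice, so they were tested. Each count was set against the same expectation with a negative binomial test over all pairs of all viewpoints, Benjamini-Hochberg adjusted, and a call also needed a count above expectation in each library. Of the 16 other viewpoints within 1 Mb of Nhej1, 1 had a called fragment there. It is the viewpoint named Fam134a, chr1:75138756-75139042, 16.9 kb from Nhej1 on the side of Ptprn. The name does not match the annotation: the fragment holds a GENCODE start of the neighbouring gene Cnppd1 (chr1:75138942) and no start of Fam134a, whose GENCODE and RefSeq start (chr1:75139360) lies in the viewpoint named Cnppd1, chr1:75139231-75139809, beside another GENCODE start of Cnppd1 (chr1:75139271). Both are called here by their viewpoint names, and neither name is taken as the promoter of that gene alone. At the other viewpoints within 250 kb a start of a named gene lay inside the fragment, for Nhej1 and Dnajb2 in RefSeq alone. The Fam134a viewpoint had 3, 7 and 5 events at the third fragment, a ratio of 12.1 (negative binomial test, adjusted p = 0.048). That call was lost without any 1 of the libraries (adjusted p = 0.105 without a, 0.554 without b, 0.192 without c). It was also lost with 25 distance bins (adjusted p = 0.0597), with length scaling (0.0539), without chromosome X and a stretch of chromosome 9 (0.0506), with viewpoints weighted equally (0.056) and with the dispersion over all pairs (0.941). Over the 3 fragments Fam134a had 9, 17 and 13 events and a ratio of 10.5, 12.0 and 9.07 in libraries a, b and c. The Cnppd1 viewpoint had 3, 11 and 10 events and ratios of 4.75, 12.7 and 11.2, with the lowest value in library a (lowest adjusted p = 0.271).

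Apart from Fam134a and Cnppd1, promoters between Nhej1 and Ptprn had summed ratios between that of Cnppd1 and the expectation. Zfand2b, a ubiquitin-binding zinc finger gene, and Abcb6, at 84.0 and 72.6 kb from the contact, had summed ratios of 4.86 and 5.00. Atg9a_Ankzf1, a fragment shared by an autophagy gene and its neighbour, had 3.28 at 60.5 kb, and Stk16_Glb1l had 2.98 at 41.7 kb. Tuba4a had 2.36 at 33.1 kb, with no event in library b, and Dnajb2 2.62 at 15.6 kb. None of these 6 had a called fragment. Across Ptprn, Dnpep, an aminopeptidase gene, had 2.33 at 64.6 kb, with 6, 4 and 5 events. Cryba2, a lens crystallin gene that the study captured as an inactive promoter and which lies beyond Ihh, had 2.07 at 310 kb from 2, 4 and 4 events. Of the 5 viewpoints more than 500 kb away, Usp37_Cnot9 had 3, 6 and 2 events and a ratio of 8.56, above those of Zfand2b and Abcb6. Bcs1l_Zfp142 had 7.91 from 1 event, Pnkd_Aamp 5.95 from 3, Ttll4 3.55 from 4 and Stk36_Rnf25 2.82 from 3, and Stk11ip, 269 kb away, had 1.06 from 1. None of these 6 was called. Ratios on so few events, those of Cryba2, Atg9a_Ankzf1 and Tuba4a (10, 9 and 7 events) among them, give no firm order. Distance expectation differs between these viewpoints, so the ratios and not the counts are set side by side.

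**Figure D3:**
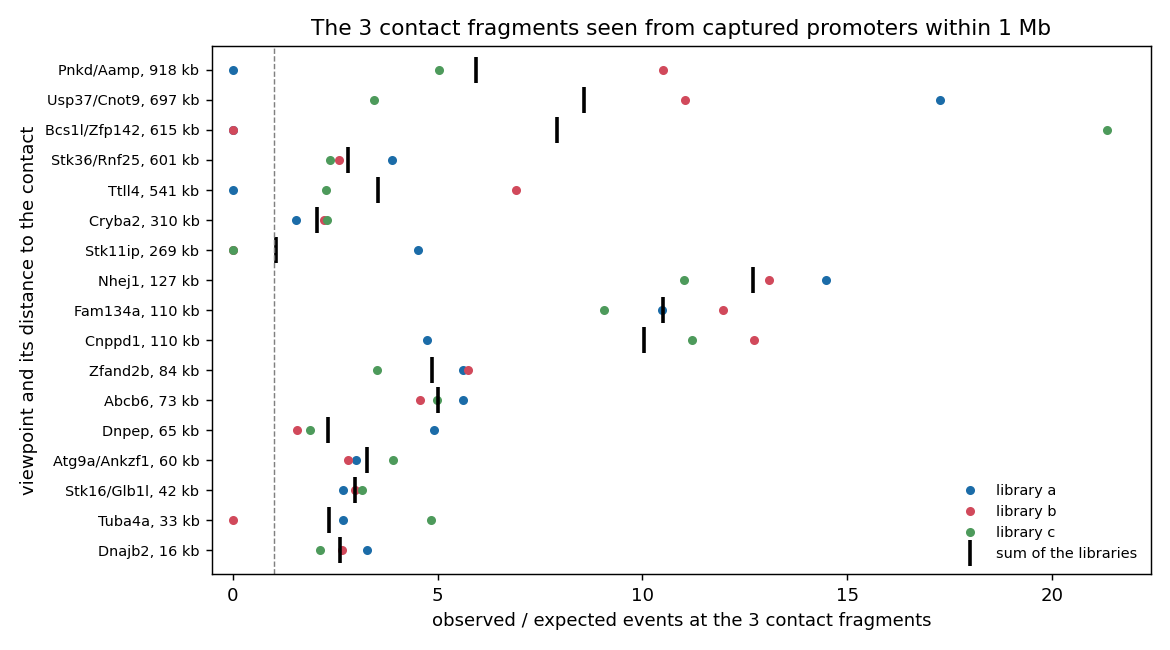
Observed over expected events at the 3 contact fragments together (horizontal axis) for Nhej1 and the 16 other captured viewpoints within 1 Mb of it (vertical axis, ordered by distance to the contact), with points for libraries and a bar for their sum. Nhej1 at 12.7, Fam134a at 10.5 and Cnppd1 at 10.0 stand highest, and the viewpoints beyond 500 kb rest on 1 to 11 events.

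Single fragments held few events for most of these promoters, so counts were also summed in fixed 5 kb windows, a step added after the data had been seen. Of 2660521 windows over all viewpoints, 0.159% were called. At chr1:75245001-75250000, which holds the first and second fragments, Fam134a had 21, 35 and 29 events and a ratio of 7.63 (negative binomial test, adjusted p = 5.37e-07). Cnppd1 had 12, 14 and 16 events there, a ratio of 5.86 (adjusted p = 0.00114), and Abcb6 had 23, 35 and 45 events, a ratio of 4.37 (adjusted p = 0.0017). In the next window, with the third fragment, Fam134a had a ratio of 4.34 (adjusted p = 0.0225), Cnppd1 of 4.87 (adjusted p = 0.0162) and Abcb6 of 2.22 (adjusted p = 0.561). These 3 viewpoints were the only ones called, and each was called without any 1 of the libraries. The expectation of a window counts fragments and not bases, and the 3 chosen fragments are longer than the median of 272 bp. The 5 kb windows, here and below, were not tried with length scaling, which had lost the single-fragment call of Fam134a. Their calls were not confined to the contact. Fam134a was also called at chr1:75210001-75215000 (ratio 4.35) and chr1:75230001-75235000 (4.71), Cnppd1 at chr1:75175001-75180000 (3.74) and chr1:75230001-75235000 (5.13), and Abcb6 at chr1:75240001-75245000 (3.40). Of the 3 called single fragments of Fam134a, 1 lay at the contact. None was called where the dispersion was estimated over all windows, the highest included. In the same windows Nhej1 had 58, 85 and 73 events (ratio 8.97) and 42, 54 and 46 events (ratio 6.89), given with no test.

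With no viewpoint named for Ptprn, the contact could not be read from its own other end, and the nearest captured promoter was used. Dnajb2 was the only captured promoter within 30 kb of the contact fragments, at 15.6 kb. Its counts beside Nhej1 describe contact of Dnajb2 with Nhej1. The Dnajb2 gene was itself raised when seen from Nhej1 (4.41 ± 0.150, SD, n = 2). At the 3 fragments on each side of the Nhej1 viewpoint it had 7, 13 and 11 events, a ratio of 3.38, 3.86 and 3.26 in libraries a, b and c (3.47 ± 0.126, SD, n = 2). Summed over libraries the Dnajb2 ratio was 3.51. Of the viewpoints farther from the contact, Tuba4a had 5.37 at these 6 fragments from 14 events, and Dnpep 4.19 from 21. Zfand2b had 2.98 and Stk16_Glb1l 2.87. Abcb6, Atg9a_Ankzf1, Cnppd1, Fam134a and Cryba2 were lower still, between 1.93 for Abcb6 and 0.564 for Cryba2. The Dnajb2 ratio was thus not the highest, and whether it is particular to the contact was not tested. None of the 6 fragments was called for Dnajb2 (negative binomial test, lowest adjusted p = 0.396), and at most 1 was called under any other setting. The highest for Dnajb2, chr1:75119984-75120953, had 3, 6 and 3 events and a ratio of 8.16. Summed in the 5 kb window chr1:75120001-75125000, which holds the Nhej1 viewpoint, Dnajb2 had 12, 25 and 17 events and a ratio of 4.08 (adjusted p = 0.0275), and in the next window toward Ptprn 10, 20 and 20 events and a ratio of 5.67 (adjusted p = 0.00102). Dnpep, on the far side of Ptprn and 192 kb from Nhej1, had 9, 13 and 14 events at the Nhej1 window and a ratio of 4.78 (adjusted p = 0.0314). Its call was lost without any 1 of the libraries. Stk16_Glb1l was called in the window beside it (26, 31 and 37 events, ratio 3.87, adjusted p = 0.00903) and not at the Nhej1 window (ratio 3.09, adjusted p = 0.103). These calls too were lost with the dispersion over all windows. The raised contact of Dnajb2 was not confined to Nhej1, since all 7 of its called windows lay between chr1:75120001 and chr1:75170000, with ratios from 3.32 to 5.67.

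Against its nearest captured viewpoints no single stretch of the Nhej1 profile passed the test. In 5 kb bins within 500 kb of both viewpoints, the log2 ratio of observed to expected was compared with limma, with library as a block and a pseudocount of 5 per 100000. No bin passed an adjusted p of 0.05 of 185 against Fam134a, of 185 against Cnppd1 and of 180 against Zfand2b (0% called in each), although 22, 31 and 28 bins had an unadjusted p under 0.05. The lowest adjusted p was 0.0901, 0.0518 and 0.0794. This fit took the 3 libraries as separate, and with b and c averaged into 1 sample 0, 0 and 5 bins were called. Depth differed between the viewpoints: 17 to 36 of these bins were empty for Nhej1 in a library, against 75 to 96 for Fam134a, 101 to 110 for Cnppd1 and 81 to 102 for Zfand2b. The median bin was higher for Nhej1 by 1.18, 1.41 and 1.17 on the log2 scale, and with a pseudocount of 100 by 0.25, 0.25 and 0.27. The part of depth in single bins was not tested. The counts of called bins moved with the setting, up to 49 of 464 bins of 2 kb against Cnppd1, and are given in the closing section.

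**Figure D4:**
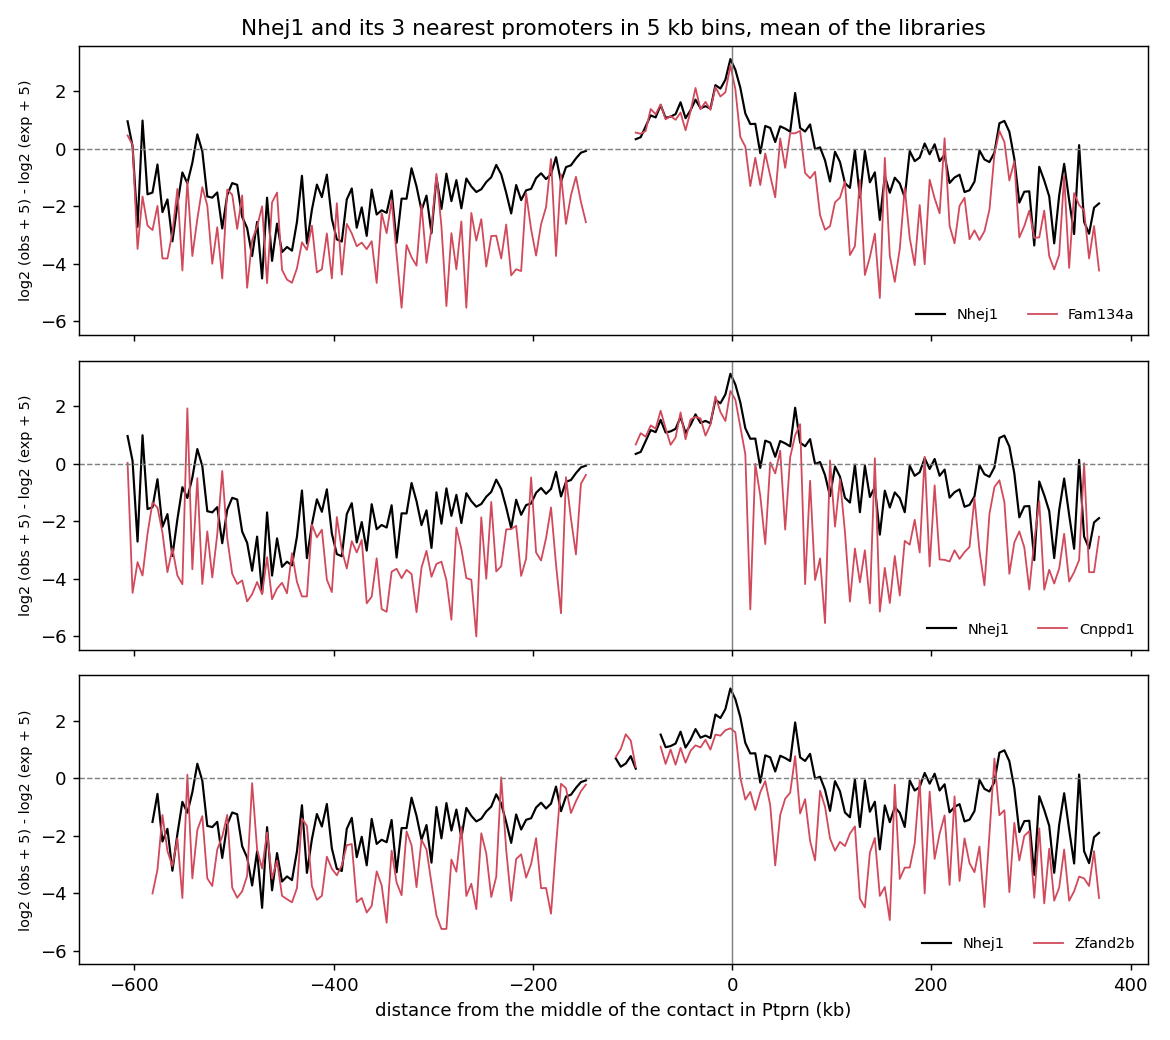
Log2 of observed plus 5 minus log2 of expected plus 5 per 100000 cis events (vertical axis), averaged over the 3 libraries, in 5 kb bins by distance from the middle of the contact (horizontal axis, kb), for Nhej1 (black) and Fam134a, Cnppd1 and Zfand2b (red, top to bottom); bins within 10 kb of either viewpoint are left out. Each of the 4 lines has its highest bin in the bin of the first and second contact fragments, at 3.13 for Nhej1, 2.91 for Fam134a, 2.53 for Cnppd1 and 1.74 for Zfand2b. The expectation counts fragments and not bases.

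In the 2 bins that hold the chosen fragments, which get no p, Nhej1 exceeded Fam134a by 0.22 and 0.68 on the log2 scale (SE 0.424 and 0.439), Cnppd1 by 0.60 and 0.53 (SE 0.540 and 0.562) and Zfand2b by 1.39 and 1.15 (SE 0.614 and 0.622). The differences from Zfand2b were the larger ones, and those from Fam134a and Cnppd1 were at most 0.68. On this log2 scale the highest bin of all 4 viewpoints was the same, at the first and second fragments. By summed counts Zfand2b had a ratio of 3.33 there and 3.34 in the next bin.

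The viewpoints most like Nhej1 were ranked by Pearson's r of the ratio over 191 windows of 5 kb within 500 kb, as a description; the windows share libraries and neighbouring fragments, and shallow viewpoints are noisier. Fam134a came first with r = 0.897 (Spearman's rho 0.661), then Abcb6 with 0.820, Zfand2b with 0.724, Atg9a_Ankzf1 with 0.668 and Stk16_Glb1l with 0.629. The Cnppd1 viewpoint, next to Fam134a and with 3445 events against 5279, had 0.557. Tuba4a had 0.491, Dnajb2 0.485, and Cryba2, on the other side of Nhej1, had 0.0147. The order depended on the measure. By Spearman's rho Abcb6 (0.651) and Atg9a_Ankzf1 (0.614) followed Fam134a, and Dnajb2 (0.591) stood above Stk16_Glb1l (0.584) and Zfand2b (0.574).

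Among the 10 fragments of Nhej1 with the highest ratio from 10 kb to 1 Mb, of 364 with at least 5 events, 5 lay in Ptprn and were those named above. The other 5 lay 396 to 840 kb away and had 5 to 10 events each, so that a few events set their ratios of 10.4 to 12.3. They fell in Arpc2, an actin-nucleating complex gene (815 kb), Ctdsp1, a phosphatase gene (683 kb), and Zfp142, a zinc finger gene (491 kb), and in no annotated gene at 840 and 396 kb. The Arpc2 and Zfp142 fragments had no event in library a. None of these 5 was called.

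The pathway was followed through a list of end joining genes. Of these, 11 were captured, alone or with a neighbour on the fragment, from the Ku genes Xrcc5 and Xrcc6 and the kinase Prkdc to the nuclease Dclre1c, the ligation factors Xrcc4 and Lig4, the polymerase Poll, the end processing genes Aptx and Aplf, and BC029214, the older name of Paxx. Nhej1 was the only 1 of these 11 with a called fragment, and it was chosen for that. Of all 6718 viewpoints tested, 528 (7.86%) had a call. Leaving out library a added Xrcc6, and leaving out b or c added Aptx. Of the other genes of the list, Prkdc_Mcm4 had 2 called 5 kb windows and Dclre1c 1, where 28.2% of all viewpoints had at least 1. The highest fragment of Xrcc6 lay 600 kb away with 0, 7 and 4 events, and that of Lig4 963 kb away with 2, 2 and 2 events.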

How the data were processed

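Members and gene lists were chosen with earlier results of these data known. The authors trimmed reads with Trim Galore, aligned them with Bowtie (versions not given in the sources used here; mm9 build), removed PCR duplicates with CCseqBasic, masked co-targeted fragments and scaled counts with CaptureCompare; the deposited signal is reporters per 100000 cis reporters of a viewpoint in a library. A second deposited file gives viewpoint positions, which carry no other measurement. Whole events were worked back by dividing by the smallest value above 0 of that viewpoint and library, and 100% of values came out whole within 0.01. Library totals were 18230099, 34428035 and 34233560 cis events in a, b and c, and a single event limits the precision of any fragment. Nothing in the labels ties libraries to separate animals, so the limma p-values may measure technical spread only. The negative binomial p-values rest on the spread of summed counts over pairs at like distance. They do not measure spread between libraries.

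Expected counts came from 50 distance bins of equal log width between 2.5 kb and 1 Mb, over 6718 viewpoints with at least 1000 events. The negative binomial dispersion was taken per bin by moments, leaving out the highest 0.1% of standardised counts. Calls needed a Benjamini-Hochberg adjusted p under 0.05 over all pairs. Bins were compared with limma 3.58.1 (R 4.3.3), and the rest used Python 3.11.15 with scipy 1.17.1. Both tests were tried on simulated data. The alternatives were other bins, weights, dispersions, pseudocounts and bin sizes, length scaling and leaving out each library. Named viewpoints were those within 250 kb of Nhej1 or called at the contact, genes under the contact, the viewpoint and the 10 highest fragments, the list of end joining genes, and the 5 most alike profiles; the viewpoints more than 250 kb away were named after their values were seen. GENCODE vM1 on NCBIM37, the assembly of mm9, gave annotation, and fragments matched its GATC sites. Polm was not analysed here, and another gene of the list is not reported here.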

Additional observations from a re-analysis of the deposited data

How the results depend on the processing

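None of the 126 alternative values reversed direction, but many are counts of calls, which have no direction to reverse. Of the 126, 85 kept their side of the threshold, stayed within the spread or, for counts, within 1.5 times the reported count. Single calls among them could still change, as Dnpep did. The 102 events of Nhej1 at the 3 fragments gave a ratio of 12.1 to 13.7 when a library was left out and of 8.79 with the expectation scaled by fragment length. The number of fragment calls of the other viewpoints at the contact, 1 as reported, was 0 with 25 distance bins, with length scaling, without chromosome X and a stretch of chromosome 9, with viewpoints weighted equally, with the dispersion over all pairs and without each library (0 to 0). It was 2 when the dispersion was estimated without the top 1% of counts and 13 with Poisson counts, which called 176061 pairs over all viewpoints against 1190 as reported; the other settings called from 248 to 3659. The Dnajb2 ratio beside Nhej1, 3.51, does not depend on the dispersion or on Poisson counts, and with Poisson counts 1 fragment was called. End joining genes with a call, 1 as reported, numbered 2 without each library, 3 without the top 1% and 11 with Poisson counts. Measured from fragment edges, 5.15% of events lay under 10 kb, and without each library the side toward Ptprn took 73.5 to 74.0% of events between 2.5 kb and 1 Mb (73.8% with all) and 82.0 to 82.9% between 10 and 200 kb. The added 5 kb windows, chosen after seeing the data, gave 0 called viewpoints at the contact and 0 at Nhej1 with the dispersion over all pairs.

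Counts of limma bins called against Fam134a, Cnppd1 and Zfand2b, 0 each as reported, were 9, 24 and 19 with a pseudocount of 1 and 11, 24 and 22 with no library block. Against Cnppd1 they were 1 with a pseudocount of 20, 49 with 2 kb bins and 4 with 10 kb bins. With a pseudocount of 100, also added after seeing the data, they were 0, 7 and 11, and with libraries b and c averaged 0, 0 and 5. The cause of these changes was not tested. The library block pairs the viewpoints within a library, and no pairing between groups arises with 1 group. Few events per fragment limit every single-fragment value, and 3 libraries, of which b and c differed by no more than sampling noise, limit the error estimates.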
